A study of Mus musculus with 6 samples.

Results

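Potassium channel genes (symbols starting with Kcn) encode the subunits of the channels that let potassium ions leave the cell. A total of 81 autosomal protein-coding Kcn genes were described here, out of 92 on autosomes. The gene family was chosen with earlier results of these data known, and its members by coverage. Each had 5 or more cytosines read at least 6 times in all 6 libraries. These cytosines lay between 1000 bp upstream of the annotated 5' end and the end of the gene. The same rule held for 14827 autosomal protein-coding genes. Just inside it lay Kcna10 and Kcnmb1 with 5 cytosines, and just outside it Kcnc2 and Kcnv2 with 4. Methylation over these few cytosines averaged 78.0% and 54.0% in control replicates 2 and 3 for the former pair, and 83.7% and 93.2% for the latter.

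Potassium channels set the resting potential of neurons, end the action potential and limit firing rate. The letter after Kcn names the subfamily. Kcna, Kcnb, Kcnc and Kcnd genes encode voltage-gated pore subunits, Kcnh the ether-a-go-go type and Kcnq the subunits of the M current. Kcnj genes encode inward rectifiers, Kcnk leak channels, and Kcnm, Kcnn, Kcnt and Kcnu channels of large or small conductance that calcium, sodium or pH can open. Kcnf, Kcng, Kcns and Kcnv subunits are electrically silent alone and modify Kcnb channels. Kcnab, Kcne, Kcnip and Kcnmb genes encode accessory subunits. In mammals CpG-rich promoters are mostly free of DNA methylation, whereas gene bodies are commonly methylated.

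DNA methylation was measured by Ox-RRBS, in which MspI digestion enriches CpG-rich fragments, oxidation removes the signal of 5-hydroxymethylcytosine and bisulfite turns unmethylated cytosine into T. The level of a region is the percentage of its reads that stayed C at CpG cytosines. The tissue was the full cortex of C57BL/6 embryos at embryonic day 16, with 3 libraries of Uhrf1 +/- embryos (control) and 3 of Uhrf1 -/- embryos (cKO). Uhrf1 binds newly replicated DNA and brings the maintenance methyltransferase Dnmt1 to it. The study's methods describe a Cre expressed from the Emx1 locus, active in the dorsal telencephalon, that removes the floxed exon 4 of Uhrf1, and controls that also carried Cre and kept an intact allele. Cells of the cortex outside this lineage keep Uhrf1 and were in the dissected tissue, so a level is an average over cells, and fewer methylated cells cannot be told apart from less methylation per cell. The labels tie no library to a litter, so p-values reflect only how far these libraries spread.

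Coverage summed over the listed cytosines was 18238737 to 31019082 per library, with a median of 13 to 17 reads per cytosine. A read counts once for each cytosine it covers, here and in the read numbers of promoters, bodies and windows. Cell identity could not be checked by expression in DNA libraries. Promoters of 6 of 8 dorsal cortex markers could be read, with a median level of 0.641% in control replicates 2 and 3. Of these 6, 1 reached 25% or more, and the highest stood at 52.8%. The median was 1.40% over 3 of 5 ventral forebrain markers and 65.6% over 3 of 4 glial markers. Of 5 promoters of the microglia, vessel and blood list 1 could be read, at 0.685%.

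The library labelled control replicate 1 stood apart from the other controls. Mean body methylation of the Kcn genes was 18.0% in it, against 50.3% in the second and 48.8% in the third. The cKO libraries stood at 24.5%, 22.6% and 18.4%. Of the 63 Kcn bodies at 25% or more in the mean of control replicates 2 and 3, all 63 were lower in control replicate 1 than in both. It lay below all 3 cKO libraries in 29 of them, among these libraries in 29 and above them in 5. It was kept as a control wherever all 6 libraries were tested. Each result is also given without it, and those calls rest on leaving out a control because of its measured methylation.

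Promoters and bodies differed sharply in level. Over 56 Kcn genes with 3 or more cytosines in the promoter (a window that starts 1000 bp before the 5' end and stops 500 bp after it), the mean level of control replicates 1 to 3 was 2.04%, 4.77% and 4.70%, and that of cKO replicates 1 to 3 was 2.43%, 3.35% and 2.87%. Values are given in this order of replicates throughout. Over the 79 genes with 3 or more cytosines in the body, from the promoter window to the gene end, the means were those given above. Both regions could be measured in 54 genes. Other autosomal genes had close levels in each library, with body means of 18.5%, 50.8% and 49.9% in controls and 23.5%, 22.8% and 18.0% in cKO.

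**Figure D1:**
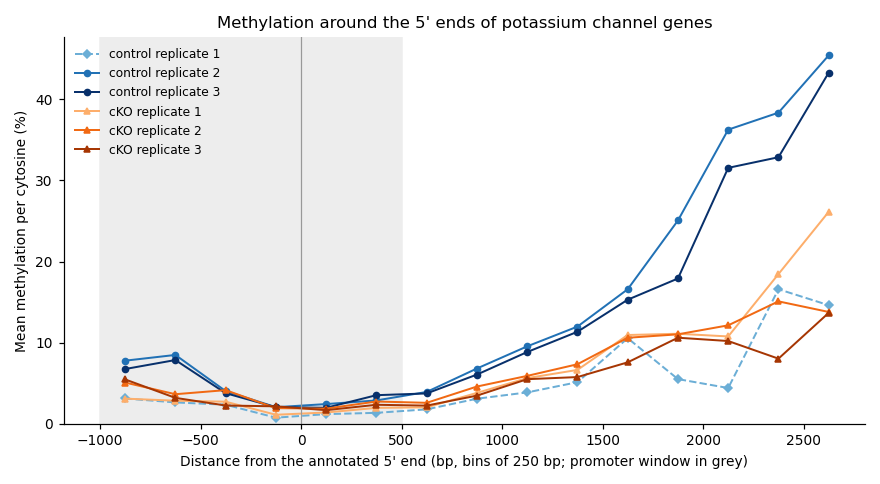
Mean methylation per cytosine (%, y axis) against distance from the annotated 5' end (bp, x axis, bins of 250 bp) for each of the 6 libraries. The promoter window is in grey, and the plot stops before the first bin with fewer than 20 cytosines, at 2750 bp. Levels stayed under 10% across the promoter window in every library and climbed past 1500 bp in control replicates 2 and 3, to 45.4% and 43.3% between 2500 and 2750 bp.

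In control replicates 2 and 3 the climb from promoter to body was gradual up to 2750 bp. Between 250 bp upstream and the 5' end, 244 cytosines averaged 0.749%, 2.04% and 2.04% in controls and 1.11%, 1.92% and 2.15% in the cKO libraries. Between 1000 and 1250 bp downstream, 123 cytosines averaged 3.86%, 9.54% and 8.84% in controls and 5.63%, 5.90% and 5.49% in cKO. Between 2500 and 2750 bp, 25 cytosines averaged 14.6%, 45.4% and 43.3% in controls and 26.1%, 13.8% and 13.7% in cKO. In the last of these bins every cKO library lay below control replicates 2 and 3, and 2 of them below control replicate 1. The bins hold different genes and numbers of cytosines, so the profile is a description.

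Nearly all Kcn promoters were close to unmethylated. A control mean under 5% was found in 50 of 56. With all 6 libraries, 0 Kcn promoters were called lower or higher in cKO (a Benjamini-Hochberg q under 0.01 in a moderated quasi-binomial F test together with 25 percentage points or more between group means). The background was 0% of 11531 promoters in either direction. At an unadjusted p under 0.05, 2 Kcn promoters were found, against 2.58% of all promoters. Without control replicate 1, 3 Kcn promoters were called lower, where 3.63% of all promoters were, and 0 were called higher.

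The 3 methylated promoters belonged to Kcnk18, Kcne1 and Kcnmb1, which are also the only members with a control mean of 25% or more there. The CpG with the largest difference in each is shown, read 5' to 3' on the strand of the measured cytosine from the GRCm38 genome of RefSeq, with every measured CpG in capitals.
Kcnk18 (chr19:59219566-59219595, minus strand, 367 bp downstream of the 5' end): gactgggaagcagcCGgaacccatcatgtt
Kcne1 (chr16:92359529-92359558, minus strand, 76 bp upstream of the 5' end): ccaagcccttccacCGgagctgcccctgtt
Kcnmb1 (chr11:33962594-33962623, minus strand, 404 bp upstream of the 5' end): tgcttcCGgccagcCGtccaggtccaggga

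Kcnk18 encodes TRESK, a leak channel known from sensory neurons. Its promoter (7 cytosines, at least 205 reads per library) stood at 33.97%, 84.4% and 89.3% in controls and at 47.3%, 44.5% and 26.2% in cKO. The cKO libraries lay below control replicates 2 and 3 and on both sides of control replicate 1. With all 6 libraries the difference was -29.9 points (q = 0.951, moderated F test with Benjamini-Hochberg adjustment). Without control replicate 1 the level fell by 47.5 points, from 86.8% ± 3.43 (SD, n = 2) to 39.4% ± 11.4 (SD, n = 3), with q = 0.000496 in the same test. The single CpG shown for Kcnk18 was read as methylated in 26.7%, 77.5% and 100% of reads in controls and 18.2%, 51.4% and 15.4% in cKO, at 11 to 40 reads.

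Kcne1 encodes minK, an accessory subunit that slows the opening of Kcnq1 channels. Its promoter (9 cytosines, at least 139 reads) stood at 15.1%, 40.6% and 47.2% in controls and 18.4%, 21.6% and 15.0% in cKO. The groups overlapped through control replicate 1 only. The difference was -16.0 points with all 6 libraries (q = 0.951, moderated F test, Benjamini-Hochberg) and -25.5 points without control replicate 1 (q = 0.0074). At the CpG shown, 76 bp upstream of the start, methylation was 0%, 90.9% and 89.5% in controls and 15.8%, 22.7% and 21.1% in cKO (11 to 22 reads).

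Kcnmb1 encodes the beta subunit of the large-conductance calcium-activated channel that is typical of smooth muscle. Its promoter (4 cytosines, at least 84 reads) stood at 18.6%, 49.2% and 46.4% in controls and 17.7%, 13.5% and 11.6% in cKO. It was the only Kcn promoter in which all 3 cKO libraries lay below all 3 controls, a pattern seen in 2.25% of all promoters. The difference was -23.8 points with all 6 libraries (q = 0.951, moderated F test, Benjamini-Hochberg) and -33.5 points without control replicate 1 (q = 0.00523). The single CpG shown for Kcnmb1 did not follow the promoter in every library, at 33.3%, 73.9% and 90% in controls and 66.7%, 28.6% and 6.45% in cKO (12 to 31 reads).

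These 3 calls rest on few cytosines and libraries. With control replicate 1 left out, 0 of the 3 were called when all nuclear chromosomes entered the fit, and 1 with limma on percentages. Over all promoters these settings gave 95 and 284 calls, beside 418 in the main fit without control replicate 1. Omission of control replicate 2 as well leaves 1 control library, assumed to vary like the cKO libraries, and gave q = 0.042 for Kcnk18, 0.0953 for Kcne1 and 0.151 for Kcnmb1 in the same F test with Benjamini-Hochberg adjustment, and all 3 promoters then failed the threshold. The differences themselves kept their direction, at -49.9, -28.8 and -32.2 points.

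Of the other promoters, Kcng1 (a silent subunit, 15 cytosines) came closest at 9.07%, 23.9% and 14.3% in controls and 6.30%, 9.44% and 8.92% in cKO. Its difference was -10.9 points without control replicate 1 (q = 0.0238, moderated F test, Benjamini-Hochberg), under the threshold of 25 points. Kcnj10, the inward rectifier Kir4.1 of astrocytes, stood at 2.52%, 16.9% and 4.30% in controls and 7.26%, 3.88% and 2.67% in cKO, and the groups overlapped. Kcnn3, a small-conductance channel, stood at 3.61%, 9.60% and 8.76% in controls and 3.93%, 2.62% and 5.44% in cKO. All cKO libraries lay below control replicates 2 and 3 in 7 Kcn promoters (Kcne1, Kcng1, Kcnip2, Kcnk4, Kcnk18, Kcnmb1 and Kcnn3), where 12.1% of all promoters did.

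The level of a promoter went with its CpG content. The selection did not use that content itself, but it required covered CpG cytosines, and MspI digestion enriches CpG-rich fragments. A CpG island of 200 bp or more, computed from sequence, lay in 50 of the 56 promoters, and 0 of these reached 25% in control replicates 2 and 3. Of the 6 promoters with less island sequence, 3 reached it (Kcnk18, Kcne1 and Kcnmb1) and the others, Kcnab1, Kcnip3 and Kcnmb2, stood at 1.79%, 0.303% and 1.14%. Among other autosomal genes, 3.71% of 10772 promoters with an island and 66.0% of 462 without reached 25%. Of the 25 Kcn genes whose promoter could not be measured, 17 held less than 200 bp of island, so CpG-poor promoters are under-represented among those read.

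In the 50 low promoters, the median level was 0.443%, 0.568% and 0.614% in controls and 0.422%, 1.51% and 1.49% in cKO. Replicates 2 and 3 of cKO thus lay above the controls and cKO replicate 1 just below them. In 7 promoters (Kcna3, Kcnab2, Kcnd2, Kcnd3, Kcnip3, Kcnj12 and Kcnt2) all cKO libraries lay above all controls, a pattern of 13.3% of all promoters, and none was called. Kcnip3, encoding a calcium-binding partner of Kv4 channels also known as DREAM, had the largest of these differences at 3.30 points. Its promoter levels were 1.27%, 0% and 0.606% in controls and 1.92%, 1.37% and 8.47% in cKO (4 cytosines, at least 52 reads). At 20 cytosines of mitochondrial DNA, which carries little methylation, reads kept as C made up 0.922%, 1.14% and 1.05% in controls and 0.963%, 3.67% and 3.35% in cKO. The part of this background in the low promoter levels was not tested.

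Gene bodies carried most of the methylation and nearly all of the difference. With all 6 libraries, 0 of 79 Kcn bodies were called lower or higher, where 0% of 13112 bodies were called in either direction. At an unadjusted p under 0.05, 27 Kcn bodies were found with all 6 libraries, against 21.5% of all bodies. The lowest q was 0.214 (moderated quasi-binomial F test, Benjamini-Hochberg). Without control replicate 1, 44 of 79 Kcn bodies were called lower (55.7%), where 58.1% of all bodies were, and 0 were called higher. In 72 Kcn bodies all cKO libraries lay below control replicates 2 and 3, against 84.9% of all bodies. In 0 Kcn bodies all cKO libraries lay above all controls, against 1.47%. The mean difference over the 79 genes was -27.7 points without control replicate 1. When the dispersion of each body was estimated from its own libraries alone, 0 of the 44 bodies were called. The 3 promoters and every window lost their calls in the same way. In that setting 0 promoters, 0 bodies and 0 windows were called over all genes, so the loss was not particular to Kcn genes. The differences of the 44 bodies with all 6 libraries ranged from -33.9 points (Kcnu1) to -13.7 (Kcnip4), with 0 called. In what follows, a fall or difference of a single body or window leaves out control replicate 1 unless all 6 libraries are named.

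**Figure D2:**
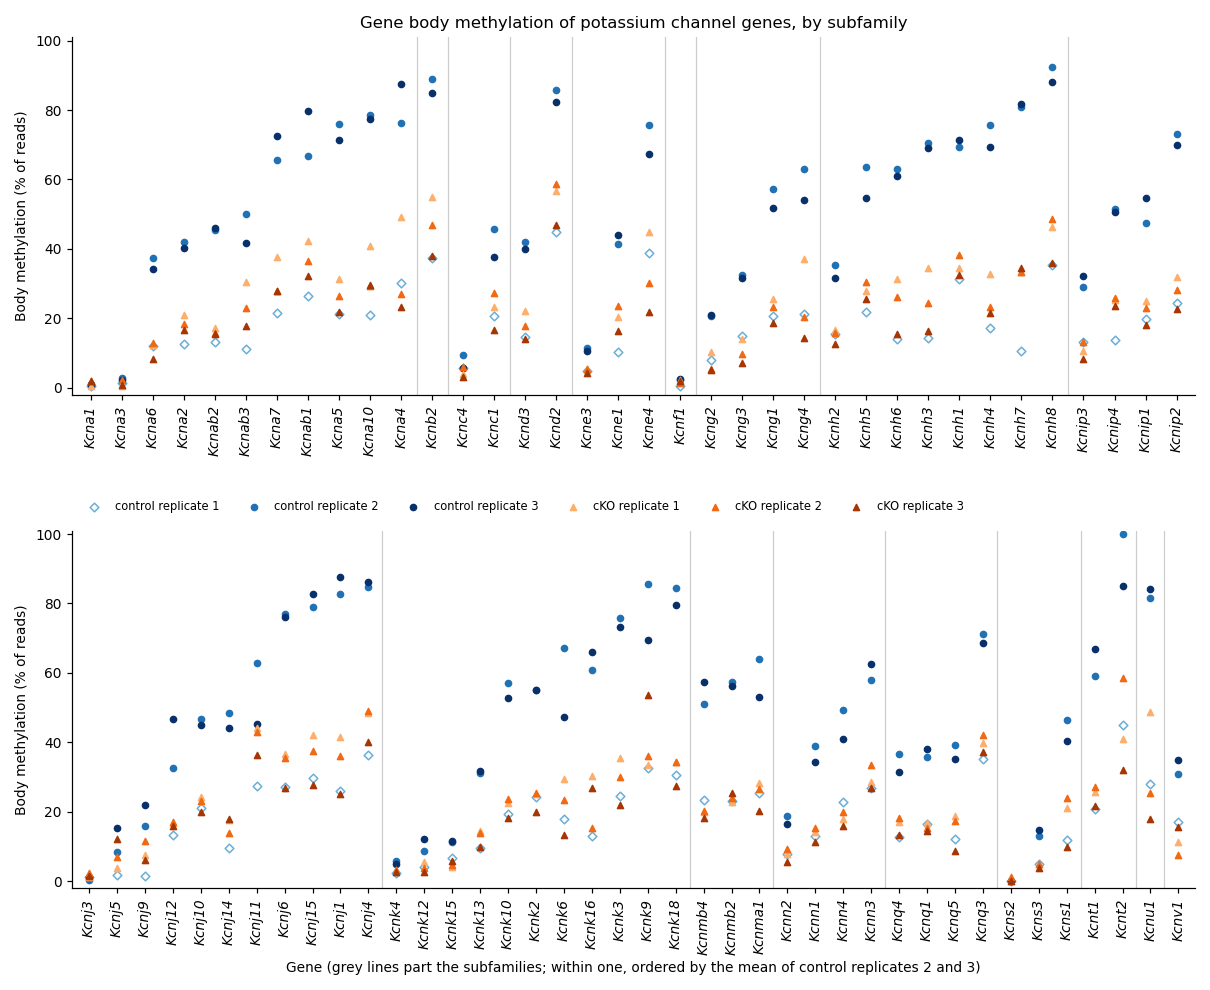
Body methylation (% of reads, y axis) of 76 of the 79 Kcn genes in each of the 6 libraries, grouped by subfamily and ordered within it by the mean of control replicates 2 and 3. Control replicates 2 and 3 lie above the cKO libraries in 70 of the genes plotted, control replicate 1 lies at the cKO level, and genes such as Kcna1, Kcna3, Kcnf1, Kcnj3 and Kcns2 stay near 0 in every library.

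The 35 bodies that were not called divide by level. A control mean under 25%, from which a fall of 25 points is not possible, was found in 16. Another 18 had a higher control mean and a difference under 25 points, and 17 of these had q under 0.01 in the moderated F test with Benjamini-Hochberg adjustment. The exception was Kcnj11. Kcnk9, with 4 cytosines and as few as 36 reads, had a difference of -36.6 points and q = 0.0388 in the same test. In 6 bodies (Kcng3, Kcnip3, Kcnk15, Kcnmb4, Kcnn4 and Kcnv1) all cKO libraries lay below all 3 controls, control replicate 1 included, against 8.61% of all bodies. The gap was narrow in Kcnip3, with 13.17% in control replicate 1 and 13.15% in cKO replicate 2.

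Among the voltage-gated pore genes, Kcnb2, which encodes the delayed rectifier Kv2.2, stood at 37.4%, 89.0% and 85.0% in controls and 54.9%, 46.9% and 37.8% in cKO, a fall of 40.4 points without control replicate 1 and a difference of -23.9 with all 6 libraries. Control replicate 1 was just below the cKO libraries in it.

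Kcnd2, which encodes the A-type channel Kv4.2 of dendrites, stood at 44.8%, 85.7% and 82.2% in controls and 56.7%, 58.7% and 46.8% in cKO (10 cytosines). Its fall of 29.9 points (-16.8 with all 6 libraries, q = 0.000261 without control replicate 1, moderated F test, Benjamini-Hochberg) left 64.4% of the control level. Kcnd3 (Kv4.3, 52 cytosines) stood at 14.5%, 42.1% and 39.99% in controls and 22.0%, 17.9% and 13.9% in cKO, a difference of -23.1 points without control replicate 1 and -14.2 with all 6 libraries.

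The Kcna bodies covered the whole range. Kcna1 (Kv1.1 of axons, 57 cytosines) stood at 0.382%, 1.04% and 0.752% in controls and 0.353%, 1.86% and 1.88% in cKO, and 56 of its cytosines lay in an island. Kcna3 was likewise low, at 0.472% to 2.69% in all 6 libraries. Kcna2 stood at 12.5%, 42.0% and 40.3% in controls and 21.03%, 18.3% and 16.7% in cKO, and its difference of -22.4 points without control replicate 1 (-12.9 with all 6 libraries) stayed under the threshold. Kcna4 and Kcna5, with 4 and 6 cytosines, were called lower by 48.7 and 47.2 points without control replicate 1, from control means of 81.9% and 73.6%. Kcna6 kept the smallest share of its control level among Kcn bodies of 25% or more, 31.1%, at 11.9%, 37.4% and 34.3% in controls and 12.3%, 13.0% and 8.23% in cKO.

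The Kcnc genes encode channels of fast-spiking neurons, and 0 of 3 bodies were called, where 58.1% of all bodies were without control replicate 1. Control means of the 3 bodies without that library were 7.47% at the lowest, 10.6% at the median and 41.8% at the highest (Kcnc1). Only Kcnc1 thus started high enough for the difference that a call needs, so the count says little about the subfamily. Kcnc1 (Kv3.1, 62 cytosines) stood at 20.8%, 45.9% and 37.7% in controls and 23.2%, 27.2% and 16.5% in cKO, a difference of -19.5 points (q = 0.000478 without control replicate 1, moderated F test, Benjamini-Hochberg).

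The Kcnh bodies had a median of 70.1% in control replicates 2 and 3 and 26.9% in cKO, and 7 of 8 were called lower without control replicate 1 (58.1% over all bodies). Kcnh1 (85 cytosines) stood at 31.4%, 69.3% and 71.3% in controls and 34.4%, 38.3% and 32.4% in cKO. Kcnh4, Kcnh7 and Kcnh8 fell by 46.7, 47.6 and 46.7 points. The uncalled member was Kcnh2, the ERG channel of cardiac repolarisation, at 15.4%, 35.2% and 31.5% in controls and 16.7%, 15.8% and 12.6% in cKO.

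Among the Kcnq genes, Kcnq3 encodes a subunit of the M current. It stood at 35.2%, 71.3% and 68.7% in controls and 39.8%, 42.1% and 37.3% in cKO, a fall of 30.3 points without control replicate 1 that left 56.7% of the level of the other controls. Its difference with all 6 libraries was -18.7 points.

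Kcnq1 had the most body cytosines, 120, and stood at 16.4%, 35.8% and 38.1% in controls and 16.7%, 15.3% and 14.5% in cKO. One CpG island in its body (chr7:143294958-143296694) lies at the 5' end of Kcnq1ot1, the antisense RNA of an imprinted domain, where the maternal copy is known to be methylated. It was chosen after its values were seen. Its 11 measured cytosines, 931 bp or more downstream of the annotated Kcnq1ot1 start, stood at 25.4%, 39.2% and 24.6% in controls and 35.3%, 26.5% and 29.6% in cKO, at 255 or more reads in each library. The 95% Wilson intervals, which cover counting error only, ran from 20.6% to 45.3% over all 6 libraries. They are too narrow where 1 read covers several of the cytosines. The groups overlapped, control replicate 1 lay between the other controls, and the difference was 0.742 points with all 6 libraries and -1.44 without control replicate 1. The other 109 body cytosines of Kcnq1 stood at 15.3%, 35.5% and 40.9% in controls and 14.8%, 14.4% and 12.4% in cKO.
Kcnq1 island CpGs (chr7:143295556-143295585, minus strand, the measured CpGs in capitals): gtattttgCGtccaCGtccccatctttgtg

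Among the inward rectifiers, 5 of 11 bodies were called lower without control replicate 1 (58.1% over all bodies). Kcnj6 (Kir3.2, a target of G protein signalling, 73 cytosines) stood at 27.1%, 76.9% and 76.0% in controls and 36.6%, 35.5% and 26.9% in cKO. It fell by 43.5 points without control replicate 1 (q = 6.878e-07, moderated F test, Benjamini-Hochberg). With all 6 libraries the difference was -27.0 points (q = 0.214 in the same test). Kcnj1, a channel known from kidney, fell by 51.1 points and Kcnj4 by 39.7 points, from 85.3% and 85.5%. Kcnj14 fell by 30.0 points from 46.4%. By contrast Kcnj3 (Kir3.1, the partner of Kir3.2) stayed between 0.426% and 2.45% in all libraries.

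Kcnj10 and Kcnj11 were not called. Kcnj10 stood at 21.2%, 46.8% and 45.0% in controls and 24.3%, 23.1% and 19.8% in cKO, a difference of -23.5 points without control replicate 1. Kcnj11 (Kir6.2, the pore of ATP-sensitive channels, 10 cytosines) stood at 27.3%, 62.9% and 45.3% in controls and 44.0%, 43.1% and 36.4% in cKO. It kept the largest share of its control level, 76.1%, and its q was 0.0762 without control replicate 1 (moderated F test, Benjamini-Hochberg).

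Of the leak channels, 6 of 11 bodies were called lower without control replicate 1 (58.1% over all bodies). Kcnk2 (TREK-1, 73 cytosines) stood at 24.1%, 55.2% and 55.1% in controls and 25.02%, 25.5% and 19.97% in cKO, a fall of 31.7 points. Kcnk18 stood at 30.6%, 84.4% and 79.5% in controls and 34.3%, 34.3% and 27.3% in cKO, with the cKO libraries on both sides of control replicate 1. Kcnk12, a silent leak-channel subunit with 77 body cytosines, of which 68 lay in islands, stood at 3.94%, 8.59% and 12.1% in controls and 5.56%, 3.64% and 2.46% in cKO. Kcnk4 lay between 2.17% and 5.80% in all libraries. Kcnk9 (TASK-3, an imprinted gene in mouse) stood at 32.5%, 85.7% and 69.4% in controls and 33.3%, 36.1% and 53.6% in cKO.

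Among channels opened by calcium or sodium, Kcnma1, the pore of the large-conductance channel (96 cytosines), stood at 25.3%, 63.9% and 53.1% in controls and 28.3%, 26.5% and 20.1% in cKO. It fell by 33.5 points without control replicate 1 (q = 4.312e-06, moderated F test, Benjamini-Hochberg). With all 6 libraries the difference was -22.4 points (q = 0.214 in the same test). Without control replicate 1, Kcnt1 (Slack) fell by 38.1 points and Kcnt2 by 48.7 (-24.0 and -32.8 with all 6 libraries), the latter over 5 cytosines and as few as 39 reads. Kcnu1, a channel of sperm, had the largest fall of all Kcn bodies, 52.2 points over 6 cytosines, from 82.9% ± 1.85 (SD, n = 2) to 30.7% ± 16.1 (SD, n = 3).

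The 4 Kcnn bodies belong to channels of small and intermediate conductance. Of these, Kcnn3 and Kcnn4 were called lower without control replicate 1, where 58.1% of all bodies were. They went from 60.1% to 29.6% and from 45.1% to 17.9%. Kcnn1 stood at 13.1%, 38.9% and 34.4% in controls and 14.2%, 15.3% and 11.2% in cKO, a difference of -23.1 points without control replicate 1 and -15.2 with all 6 libraries. Kcnn2 (93 cytosines) stood at 7.64%, 18.9% and 16.6% in controls and 7.79%, 9.08% and 5.39% in cKO. In Kcnn2, 70 cytosines lay in islands and averaged 0.504% in control replicates 2 and 3, whereas those outside averaged 73.4% there and 30.6% in cKO.

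By role, 8 of 12 accessory bodies were called lower without control replicate 1 (66.7%) and 33 of 58 pore bodies (56.9%). Of 9 silent bodies 3 were (33.3%), where 58.1% of all bodies were. Control medians were 51.1%, 57.9% and 32% in this order. A control mean of 25% or more, without which no body can be called, was found in 11, 47 and 5 of them. Kcnk12 was counted with the pore genes. Kcnab2, a cytoplasmic beta subunit (67 cytosines), stood at 13.1%, 45.5% and 45.9% in controls and 17.1%, 15.6% and 15.4% in cKO. It fell by 29.7 points without control replicate 1 (q = 6.163e-07, moderated F test, Benjamini-Hochberg). With all 6 libraries the difference was -18.8 points (q = 0.214 in the same test). Kcnab3 stood at 11.3%, 50.1% and 41.6% in controls and 30.4%, 22.9% and 17.8% in cKO, under the threshold. Kcnmb4, the neuronal beta subunit of the large-conductance channel, stood at 23.4%, 51.2% and 57.5% in controls and 19.99%, 20.3% and 18.2% in cKO, so that all controls exceeded all cKO libraries.

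Of the Kv4 partners, Kcnip1 (81 cytosines) stood at 19.7%, 47.5% and 54.8% in controls and 24.9%, 22.9% and 18.2% in cKO, a fall of 29.1 points without control replicate 1. Kcnip3 stood at 13.17%, 28.9% and 32.1% in controls and 10.6%, 13.15% and 8.38% in cKO. The groups did not overlap, but control replicate 1 and cKO replicate 2 were nearly equal. The difference was -14.0 points with all 6 libraries and -19.8 without control replicate 1. Kcne1 stood at 10.4%, 41.4% and 44.1% in controls and 20.3%, 23.5% and 16.5% in cKO, and Kcne3 between 4.14% and 11.5% in all libraries.

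Of these roles the silent subunits had the lowest median. Kcnf1 lay between 0.45% and 2.45% in all libraries. Kcng2 (102 cytosines) stood at 7.99%, 20.6% and 20.9% in controls and 10.3%, 5.41% and 5.21% in cKO. Kcng3 stood at 14.9%, 32.4% and 31.6% in controls and 13.9%, 9.71% and 7.10% in cKO. Kcns3 stood at 4.88%, 13.1% and 14.6% in controls and 4.90%, 4.90% and 3.68% in cKO, and Kcnv1 at 17.0%, 31.0% and 34.8% in controls and 11.3%, 7.44% and 15.5% in cKO. Control replicates 2 and 3 lay above every cKO library in Kcng2, Kcng3, Kcns3 and Kcnv1, none of which reached a difference of 25 points.

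The share of methylation that was left varied less than the level. In the 63 Kcn bodies with 25% or more in control replicates 2 and 3, the cKO mean was 42.0% of the control mean at the median, with a range from 31.1% to 76.1%. The median over 9249 other bodies was 41.0%. Kcnj11, Kcnd2, Kcnq3, Kcnj4 and Kcnb2 kept the largest shares among bodies with 10 or more cytosines, and Kcna6, Kcng3, Kcnab2, Kcnip3 and Kcnj14 the smallest. With control replicate 1 included, the mean difference over the 79 bodies was -17.2 points.

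Within bodies, CpG islands separated low from high cytosines. Inside islands, 1445 body cytosines averaged 10.4%, 25.4% and 24.0% in controls and 12.9%, 12.4% and 10.4% in cKO. Outside islands, 1237 averaged 24.8%, 65.3% and 65.3% in controls and 30.9%, 30.4% and 24.3% in cKO. In other autosomal genes the levels were 25.1% and 24.8% inside and 67.02% and 66.6% outside islands in control replicates 2 and 3. Of 42 Kcn genes with 5 or more cytosines of each kind, the outside level was the higher in 32. The exceptions were Kcnb2, Kcnh1, Kcnh2, Kcnh6, Kcnj4, Kcnj6, Kcnj10, Kcnn1, Kcnn3 and Kcnq3. In Kcnj4 the island cytosines averaged 91.3% in control replicates 2 and 3 and 56.6% in cKO, against 77.3% and 27.9% outside islands.

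Nearness to another annotated start marked the low island cytosines. Inside islands, 634 body cytosines inside the same window around the start of another transcript averaged 4.83%, 11.6% and 10.7% in controls and 5.94%, 5.95% and 4.93% in cKO. The 811 island cytosines near no such start averaged 14.8%, 36.2% and 34.4% in controls and 18.3%, 17.4% and 14.7% in cKO. Far from both islands and starts, 1092 cytosines averaged 25.7%, 68.2% and 68.2% in controls and 32.2%, 31.4% and 24.95% in cKO. Exonic cytosines averaged 33.4% and 32.2% in control replicates 2 and 3 and intronic ones 52.9% and 52.6%, but outside islands both stood near 65%, at 65.6% and 65.2%.

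**Figure D3:**
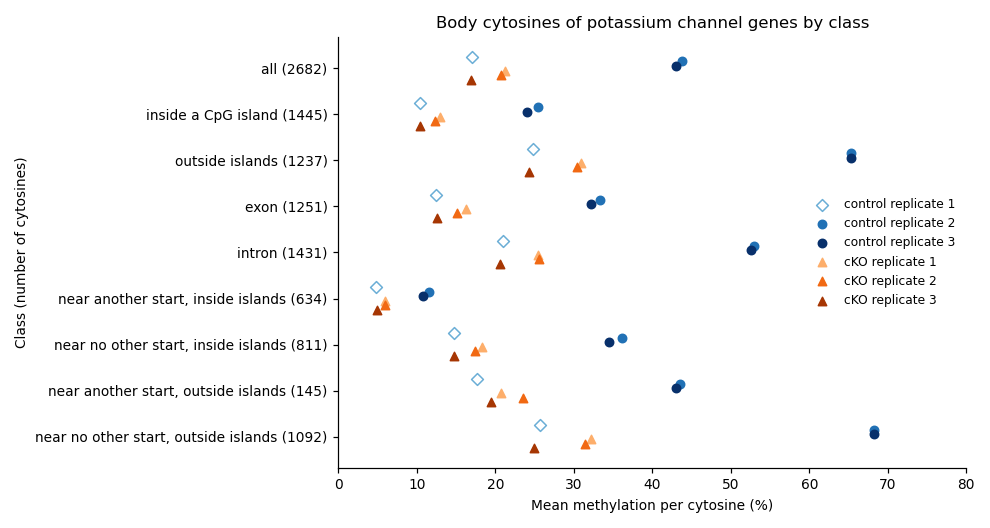
Mean methylation per cytosine (%, x axis) of the 2682 body cytosines by class (y axis, number of cytosines in brackets), with 1 point per library. In every class control replicates 2 and 3 lie above the cKO libraries, with levels from 11.6% and 10.7% near another start inside islands to 68.2% away from islands and starts.

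At finer scale, reads were summed over 100 bp windows. With all 6 libraries 0 of 1425 windows inside Kcn genes were called lower or higher, against 0% of 280595 windows, and 202 had an unadjusted p under 0.05, where 15.1% of all windows did. Without control replicate 1, 570 (40%) in 72 genes were called lower, where 44.3% of all windows were. None was called higher, where 0.00285% of all windows were.

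Among the largest falls were windows that started from levels near 90%. The leading window lay in an exon of Kcnn1 (chr8:70852701-70852800, 4 cytosines) and stood at 14.7%, 92.3% and 90.9% in controls and 21.7%, 17.2% and 15.8% in cKO. Its difference was -47.7 points with all 6 libraries and -73.4 without control replicate 1 (q = 3.642e-10, moderated F test, Benjamini-Hochberg).

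A window of Kcnk12 (intron, chr17:87775301-87775400) and one of Kcnd3 (intron, chr3:105662901-105663000) had differences of -65.2 and -63.9 points without control replicate 1 and of -41.5 and -37.8 with all 6 libraries. Control replicate 1, at 18.4% and 15.3%, lay among the cKO libraries in Kcnk12 and below them in Kcnd3. The CpG of the Kcnn1 window with most reads stood at 12.5%, 88.9% and 94.1% in controls and 22.2%, 16.9% and 22.5% in cKO.

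The windows with the smallest differences among those at 50% or more in control replicates 2 and 3 were not all alike. An intronic window of Kcnma1 (chr14:23685901-23686000, 3 cytosines) was read as methylated in 100% of reads in all 6 libraries, control replicate 1 included. Over its 3 cytosines the shallowest library held 39 reads, with a read counted once for each cytosine it covers. Taken as independent, these counts give a 95% Wilson interval down to 91.0%, which is too narrow where reads are shared. The CpG of this window with most reads had 13 to 28 reads per library. In Kcnb2 a window (chr1:15530001-15530100) stood at 88.9%, 95.2% and 87.3% in controls and 85.6%, 86.1% and 76.7% in cKO, and the groups overlapped. A Kcnh1 window (chr1:192471501-192471600, at least 247 reads) stood at 78.9%, 93.8% and 92.8% in controls and 82.4%, 82.0% and 76.6% in cKO, a difference of -13.0 points (q = 8.138e-05 without control replicate 1, moderated F test, Benjamini-Hochberg). A Kcnk2 window (chr1:189277401-189277500), which holds the annotated pseudogene Pdcd5-ps, stood at 68.1%, 96.4% and 98.6% in controls and 69.6%, 92.4% and 96.8% in cKO, and a further Kcnb2 window (chr1:15497501-15497600) stood at 41.7%, 68.9% and 60% in controls and 46.7%, 54.7% and 44.6% in cKO, a difference of -15.8 points. Of 118 Kcn windows that allowed the ratio (3 or more cytosines, 30 or more reads and 50% or more in control replicates 2 and 3), 4 kept at least 80% of the control level (3.39%), where 4.32% of 21937 other windows did. Less than 20% was left in 3 of the 118 (2.54%), against 0.807% of the other windows.
The CpGs of the Kcnn1 and Kcnma1 windows with most reads mark the opposite ends of this range (measured CpGs in capitals).
Kcnn1 (chr8:70852710-70852739, plus strand): caacaacacagtgcCGgggcagatggtcat
Kcnma1 (chr14:23685906-23685935, plus strand): gttctcagctcttcCGCGgtgtccagCGgt

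**Figure D4:**
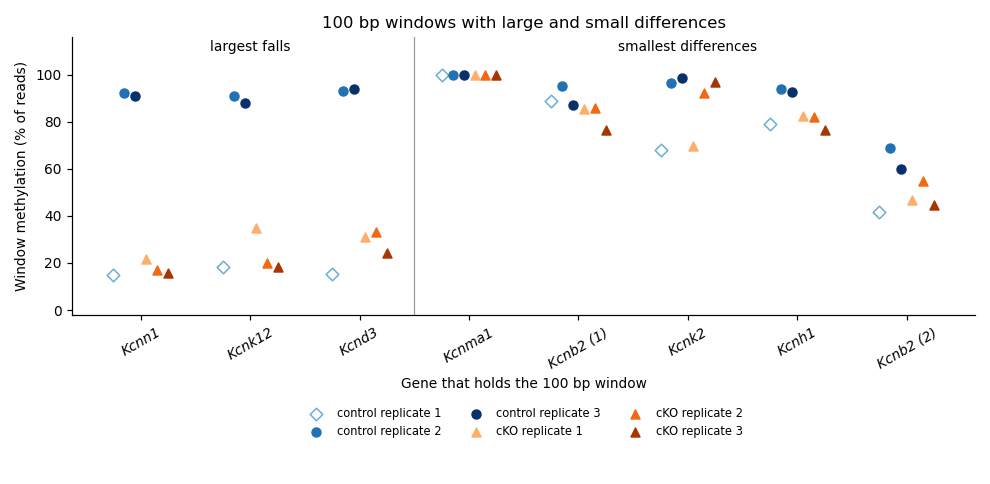
Methylation (% of reads, y axis) of 100 bp windows inside Kcn genes, 3 of those with the largest falls and the 5 with the smallest differences without control replicate 1 (x axis, gene names), with 1 point per library. The left windows hold control replicates 2 and 3 at 88.0% to 93.8% and the other libraries at 14.7% to 34.9%, while the Kcnma1 window is at 100% in every library.

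Other ion channel genes were counted beside the Kcn genes. With control replicate 1 left out, 16 of 23 calcium channel bodies (69.6%), 6 of 11 sodium channel bodies (54.5%), 5 of 7 Clcn chloride channel bodies (71.4%) and 4 of 4 HCN bodies were called lower, where 58.1% of all bodies were, and so were 9 of 14 bodies of partner genes such as Dpp6 and Dpp10 (64.3%). With all 6 libraries none was. Control medians of these bodies ran from 51.5% to 68.6%, beside 54.1% in Kcn genes. Of 10 partner promoters 1 was called lower without control replicate 1, and in the other lists none was, where 3.63% of all promoters were. No set test was run, so these counts give no order between the lists.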

How the data were processed

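Per the study's methods, the authors mapped reads to GRCm38 with Genomatix software, allowing no mismatch, dropped cytosines covered 5 times or less and used methylKit. Each of the 6 deposited files, 1 per library, lists for a cytosine its coverage (a count of reads) and which percent of them was C or T, without normalisation between libraries. Methylated reads were recovered from both. The 636736 autosomal CpG cytosines read at least 6 times in all 6 libraries were used, with the annotation of GENCODE release 21 for mouse.

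Reads were summed over promoters and bodies with at least 3 cytosines and over 100 bp windows, and cKO was compared with control over every autosomal protein-coding gene or window by a quasi-binomial F test. Its dispersion was moderated as in limma (prior fitted at 5 to 95 percent methylation, floor of 1), and a call needed a Benjamini-Hochberg q under 0.01 and 25 points between means of libraries. X-linked genes were left out because the members are autosomal by the rule, and the labels do not give sex. With 3 against 3 or 2 against 3 libraries an exact permutation test cannot give a p under 0.1, so none is quoted. Islands were computed from sequence (200 bp, GC of 50%, observed to expected CpG of 0.6).

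The members and lists were chosen with earlier results of these data known. Named genes were fixed genes, methylated promoters, up to 10 called bodies with the largest difference, bodies at the ends of level and of share left, the best covered of each subfamily, and up to 5 windows at each end, and results of some named genes are not reported here. Fits used Python 3.11.15, numpy 2.4.6, scipy 1.17.1 and pandas 2.3.3. The moderation was checked against limma 3.58.1 in R 4.3.3 and the test on simulated data. Figures were drawn with matplotlib 3.10.9. Reads carry no molecular identifiers, so intervals cover counting error only. Intervals over several cytosines count a read once for each cytosine, so they are too narrow where reads span more than 1.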

Additional observations from a re-analysis of the deposited data

Results flagged for a closer look

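Reads kept as C at 20 mitochondrial cytosines, which no comparison between groups used, were more frequent in cKO replicate 2 (3.67%, 95% Wilson interval 3.37 to 4.01%) and cKO replicate 3 (3.35%, 3.10 to 3.63%) than in the controls (0.922% to 1.14%) and in cKO replicate 1 (0.963%). The same libraries had the highest medians over the 50 Kcn promoters with a control mean under 5%.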

How the results depend on the processing

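With all 6 libraries, the 0 called Kcn promoters, bodies and windows became 1, 17 and 486 under a plain binomial test, which allows no spread between libraries. That test called 365 of all 11531 promoters, 4713 of all 13112 bodies and 105032 of all 280595 windows. Leaving out each library in turn gave 0 to 3 promoters, 0 to 44 bodies and 0 to 570 windows, where only the omission of control replicate 1 gave calls. Over all features that omission gave 418 promoters, 7617 bodies and 124166 windows. The mean difference ranged from -0.487 to -1.85 points over promoters and from -11.6 to -27.7 over bodies. Over promoters with 10 or more cytosines it was 0.284 points, against -0.953 over all 56.

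Alternatives to the tests without control replicate 1 were added after seeing the data. With the own dispersion of each feature 0 promoters, 0 bodies and 0 windows were called, in Kcn genes and over all features alike. The 3 promoters became 0 with all nuclear chromosomes in the fit and 1 with limma on percentages, where the 418 over all promoters became 95 and 284. A minimum of 10 cytosines gave 0 because it removes all 3 from testing. A coverage of 20 or more left 26 promoters, of which 1 was called, and 413 windows, of which 186 were. Over all features 127 promoters and 44613 windows were called at that coverage. Omitting a further library gave 0 to 2 promoters, 37 to 47 bodies and 228 to 535 windows, with fewest windows when control replicate 3 or 2 was left out, which leaves 1 control library, assumed to vary like the cKO libraries. The mean promoter difference of -1.85 points became 0.07 with 10 or more cytosines, -2.25 at a coverage of 10 or more, -1.20 in a narrower promoter and -1.04 with cytosines weighted equally, with a range of -1.63 to -2.08 over omitted libraries. The mean body difference of -27.7 became -38.3 outside islands and -23.9 with cytosines weighted equally, with a range of -26.0 to -29.0. The cause of these shifts was not tested.

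Of single bodies, Kcna3 (0.644, and 0.638 without control replicate 1) and Kcns3 (0.675 and 0.487) changed sign at a coverage of 20 or more. Over omitted libraries Kcnf1 ranged from -0.387 (without control replicate 1) to 0.613 and Kcnj11 from -12.9 to 4.86 (without control replicate 2). Deviations of same-numbered libraries from their group means had correlations of -0.232, 0.103 and -0.217 over 5805 bodies. Control replicate 1, far below the other controls, entered the control means, so these correlations cannot show whether libraries were paired. With all 6 libraries and the replicate number as a block, 0 promoters, 0 bodies and 0 windows were called. The count was also 0 without the block, so this decides nothing. The block was not run without control replicate 1. Low read numbers limit the bodies with few cytosines, such as Kcnk9 and Kcnt2.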
